A study of Homo sapiens with 3 samples.

Results

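The genes described here build cholesterol and fatty acids, or control that synthesis. The list held 34 genes. Each gene was read by 1 probe set, the one of highest mean log2 signal across the 3 arrays among those with a single gene symbol in the platform annotation. By that rule 31 of the 34 had a value, out of 19775 genes of the array that did. FDFT1, CYP51A1 and FADS1 had none, and for 2 of these the annotation joined the symbol with that of another gene. The arrays were of 3 stable lines made from PANC-1, a human cell line established from a ductal adenocarcinoma of the pancreas. The control line carried the empty MSCV retroviral vector, the second expressed wild-type JMJD3 and the third a mutant JMJD3, with no further treatment. JMJD3 is the protein of KDM6B, which removes methyl groups from lysine 27 of histone H3. The labels give neither the mutation, nor whether a line was a clone or a pool. Each line had 1 array and no replicate, so no test was possible and differences below are descriptions of these arrays.

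Cholesterol synthesis starts from acetyl-CoA and runs through mevalonate to isoprenoids, squalene and then a series of sterols. The SREBP transcription factors drive most of its genes. They are held in the endoplasmic reticulum by SCAP and the INSIG proteins while sterols are plentiful, and are released to the Golgi and cleaved when sterols run low. SREBP-1 acts more on fatty acid genes and SREBP-2 more on sterol genes, and SREBP sites commonly lie beside binding sites for NF-Y, which reads the CCAAT box, and Sp1, which reads GC-rich boxes.

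The signals were log2 values, and the array medians were 5.50 (control), 5.48 (wild-type) and 5.49 (mutant). Values under the pooled median of 5.48, called the floor, were raised to it before differences were taken, and a gene over the floor in at least 1 array of a pair counted as measured. All 31 named genes were measured, and 30 were over the floor in every array. The exception was MVD, which lay under it with mutant JMJD3. KDM6B was read at 5 probe sets. At 1556067_a_at the wild-type array was 2.30-fold and the mutant array 1.89-fold over control, where control read 5.53, near the floor. At its brightest probe set KDM6B differed from control by 0.06 and 0.05 on the log2 scale. The differences were 0.73 and 0.49 at 1556066_at, and 0.00 and -0.11 at 41386_i_at. The fifth probe set, 213146_at, read 5.12 in all arrays, under the floor. Of the epithelial markers, 7 of 8 were over the floor and CDH1 (E-cadherin) was not. Acinar, islet and leukocyte markers had 0 genes over it, among the 4 of 7, 4 of 4 and 4 of 5 that had a value. The endothelial, hepatocyte and adipocyte lists had 1 gene each over it (PECAM1, TTR and PLIN1). The 8 epithelial markers had a summed linear signal of 17008 in control, 19160 with wild-type and 11479 with mutant JMJD3, and the 6 fibroblast markers 1363, 1942 and 1513. Single epithelial markers did not all follow their sum. With mutant JMJD3, 3 of the 7 over the floor were higher than control (SOX9 by 2.59, KRT19 by 2.18 and EPCAM by 0.90 on the log2 scale) and 4 were lower (KRT8 at -1.09, KRT18 at -0.57, KRT7 at -0.50 and MUC1 at -0.42). Of the 6 fibroblast markers, 3 were over the floor (COL1A1, DCN and PDGFRB). COL1A1 made up most of their sum, at log2 10.16 (control), 10.69 (wild-type) and 10.38 (mutant). The mutant array differed from control by 0.22 in COL1A1, 0.00 in DCN and -0.63 in PDGFRB. For the wild-type array these differences were 0.53, 0.18 and 0.60. The part of these marker shifts in the differences below was not tested.

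The mutant JMJD3 array was the lowest of the 3 for most of the lipid synthesis genes. This was so for 25 of 31, or 80.6%, against 30.9% of all genes over the floor in at least 1 array. Against control, 29 of the 31 were lower with mutant JMJD3, where 41.2% of all measured genes were. The median difference was -0.37 over the 31 genes and 0.00 over all measured genes. By 2-fold or more, 5 of them were lower (ACAT2, HMGCS1, SQLE, MSMO1 and EBP), all enzymes of cholesterol synthesis, where 0.535% of all measured genes were that much lower. None was 2-fold higher, against 2.98% of all measured genes. By 1.5-fold or more, 11 of 31 were lower, against 3.38% of all measured genes. Most of these genes gave strong signals, with 27 of the 31 over the pooled 75th percentile (log2 7.59) in mean signal. Among the 7984 genes of the array that did so, 44.4% were lower with mutant JMJD3 and 0.664% were 2-fold lower.

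**Figure D1:**
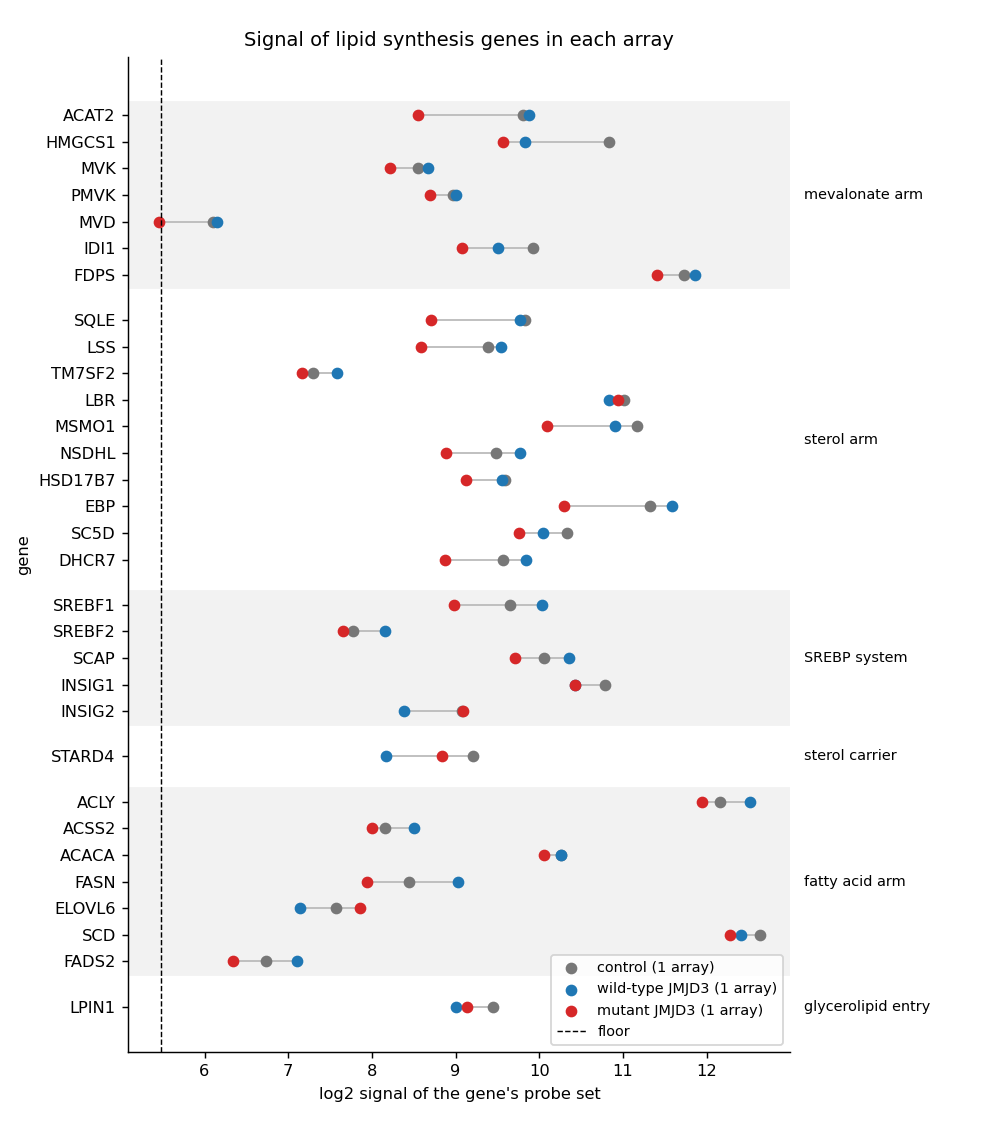
Log2 signal of each gene (horizontal axis) in each array, 1 point per array, with genes ordered by role and the floor at 5.48 dashed. The mutant points lie leftmost for 25 of the 31 genes, and the wild-type points for STARD4, INSIG2, ELOVL6, LBR and LPIN1.

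The stretches upstream of 5 genes are printed here because HMGCS1, MSMO1 and EBP were 2-fold lower with mutant JMJD3, STARD4 was 2-fold lower with wild-type JMJD3, and SREBF2 was the 1 gene of the list with a match to the sterol element searched for. Each is the 250 bases before the RefSeq start site on GRCh38.p14, 5′ to 3′ on the gene's strand. Capitals mark CCAAT boxes (CCAAT, or ATTGG where the box is on the other strand) and, in SREBF2, the sterol element. HMGCS1 has 2 start sites in the table and the more upstream is shown.
HMGCS1, chr5:43313413-43313662, minus strand: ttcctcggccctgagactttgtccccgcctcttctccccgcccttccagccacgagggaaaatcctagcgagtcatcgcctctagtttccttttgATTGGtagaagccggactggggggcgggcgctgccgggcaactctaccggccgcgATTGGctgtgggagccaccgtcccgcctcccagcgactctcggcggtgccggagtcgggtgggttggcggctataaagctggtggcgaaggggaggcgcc
MSMO1, chr4:165327419-165327668, plus strand: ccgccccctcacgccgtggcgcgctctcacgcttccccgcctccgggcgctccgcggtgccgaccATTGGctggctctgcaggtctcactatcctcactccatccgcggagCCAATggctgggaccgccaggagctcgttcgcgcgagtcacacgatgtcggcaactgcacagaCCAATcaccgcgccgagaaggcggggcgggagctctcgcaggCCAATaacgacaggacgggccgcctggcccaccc
EBP, chrX:48521558-48521807, plus strand: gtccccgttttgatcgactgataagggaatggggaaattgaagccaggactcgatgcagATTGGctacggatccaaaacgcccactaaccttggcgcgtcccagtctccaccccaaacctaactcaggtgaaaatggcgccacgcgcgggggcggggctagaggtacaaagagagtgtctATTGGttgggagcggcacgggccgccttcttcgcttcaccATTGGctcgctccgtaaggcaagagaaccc
STARD4, chr5:111512536-111512785, minus strand: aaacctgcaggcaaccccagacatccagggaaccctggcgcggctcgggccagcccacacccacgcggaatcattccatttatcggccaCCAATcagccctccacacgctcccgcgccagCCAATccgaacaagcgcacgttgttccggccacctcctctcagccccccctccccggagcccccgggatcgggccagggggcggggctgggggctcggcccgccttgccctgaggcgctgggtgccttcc
SREBF2, chr22:41832855-41833104, plus strand: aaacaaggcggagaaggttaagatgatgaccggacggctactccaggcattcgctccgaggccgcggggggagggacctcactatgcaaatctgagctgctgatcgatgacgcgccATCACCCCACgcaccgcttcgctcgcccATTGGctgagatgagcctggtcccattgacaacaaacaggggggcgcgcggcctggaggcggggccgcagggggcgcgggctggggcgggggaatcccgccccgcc

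MSMO1 held 4 CCAAT boxes in this window, EBP 3, and HMGCS1 and STARD4 2 each, while SREBF2 held 1. The window of the other HMGCS1 start site, not printed, held 0. Over the promoter table, 30 of the 34 genes had windows, 43 in all, and ACAT2, FASN, FDFT1 and SQLE were not among them. At least 1 CCAAT on either strand was found in 55.8% of the 43 windows and in 32.0% of all 35116 windows. For the enzymes of cholesterol synthesis the share was 71.4% of 21 windows, and 47.6% held 2 or more, where 9.53% of all windows did. NSDHL and MVK had the most, at 5 each. The Sp1 box GGGCGG was in 86.0% of the 43 windows and 42.6% of all windows. The E-box CACGTG was in 9.30% and 6.34%. The sterol element TCACNCCAC was found in 1 of the 43 windows, that of SREBF2, and in 0.883% of all windows. A form of it with 1 more base, searched too, also matched the SREBF2 window and 12 windows of the 35116 in all. These are matches of letters and not binding sites, some genes have overlapping windows, and other forms of the sterol element were not searched for. The 35116 windows are those of 27305 genes, whatever their signal here. Shares among genes of strong signal were not computed, so the excess cannot be called particular to this list.

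The mevalonate arm was lower with mutant JMJD3 than with either other array in all 7 genes. The mutant array was lowest for 30.9% of all genes over the floor in at least 1 array. ACAT2, the cytosolic thiolase that joins acetyl-CoA units, read 9.80 in control, 9.88 in the wild-type array and 8.55 in the mutant array. Further values given in threes are log2 signals in the order control, wild-type and mutant. The mutant thus stood apart from the other two, nearly equal arrays, 2.38-fold under control and 2.51-fold under wild-type. ACAT2 has 1 probe set, which is called shared here. Probe sets were called shared when their names ended in _s_at or _x_at, taken to mean that probes may match other transcripts. The probe sequences were not examined. HMGCS1, the HMG-CoA synthase, read 10.83, 9.83 and 9.57 in the same order. Here control stood apart, and both JMJD3 arrays were lower, 2.0-fold with wild-type and 2.39-fold with mutant. Its second probe set, 205822_s_at, read 6.61, 5.92 and 5.33, in the same order, which is 0.69 lower on the log2 scale with wild-type and at least 1.13 lower with mutant. The wild-type difference of HMGCS1 lies exactly at 2-fold and is -0.98 when the arrays are shifted to one median. IDI1, the isomerase of isopentenyl diphosphate, followed the same order, with 9.93, 9.51 and 9.07 at its brightest probe set and 9.83, 9.29 and 9.08 at 204615_x_at. A dimmer probe set, 242065_x_at, read 6.45, 6.45 and 6.65 and went the other way with mutant JMJD3.

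Further along this arm lie the kinases and the decarboxylase. MVK, mevalonate kinase, was 1.26-fold lower with mutant JMJD3 than in control. Of its 4 measured probe sets 3 were lower by 0.22 to 0.65 on the log2 scale, and 215649_s_at, under the floor with mutant, by at least 0.17. PMVK, the next kinase, was 1.21-fold lower. MVD, the decarboxylase, read 6.10, 6.15 and 5.45 and was at least 1.54-fold lower with mutant JMJD3. FDPS, which makes farnesyl diphosphate, read 11.73, 11.86 and 11.40, so that mutant was 1.26-fold under control. Wild-type JMJD3 differed from control by at most 0.13 in MVK, PMVK, MVD, FDPS and ACAT2 at the probe sets that stand for them, while MVK at 215649_s_at was 0.66 higher with wild-type. Over the 7 genes the median difference from control was 0.05 with wild-type and -0.62 with mutant JMJD3. The latter is the value of MVD, which the floor limits. It was -0.358 when an offset replaced the floor, -0.435 with the median of probe sets and -0.33 over the 3 genes left without shared probe sets.

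The sterol arm, from squalene to cholesterol, was lower with mutant JMJD3 than in control in all 10 genes that had a value. Their median was -0.64. Of all measured genes 41.2% were lower, and the median was 0.00. SQLE, squalene epoxidase and a control point of the pathway, read 9.83 (control), 9.77 (wild-type) and 8.71 (mutant). Only the mutant array stood apart, 2.17-fold under control. Its other measured probe sets read 6.91, 6.55 and 5.79 (213562_s_at) and 8.52, 8.25 and 7.62 (213577_at), with the mutant lowest in both. LSS, which closes the ring to lanosterol, read 9.39, 9.54 and 8.59, a 1.74-fold difference between mutant and control. MSMO1, which removes methyl groups from the sterol ring, read 11.17, 10.90 and 10.09 at its 1 probe set. The mutant was 2.11-fold under control and wild-type 1.21-fold. NSDHL, which works beside it, read 9.48, 9.77 and 8.89, and 8.98, 9.35 and 8.33 at 209279_s_at. In both probe sets wild-type was highest and mutant lowest.

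EBP, the sterol isomerase, read 11.32 (control), 11.58 (wild-type) and 10.29 (mutant) at a shared probe set. That put mutant 2.04-fold under control and 2.45-fold under wild-type. Its 3 other probe sets gave mutant lower as well, by 0.81, 0.55 and 0.16 on the log2 scale, so the 2-fold value rests on the brightest and is -0.68 with the median of the probe sets. DHCR7, which catalyses the last step of one branch, read 9.56, 9.84 and 8.87, and 8.91, 9.42 and 8.19 at 201790_s_at. Mutant was lower than wild-type by 0.97 and 1.23. SC5D, the sterol desaturase, was lower than control in both JMJD3 arrays, 1.48-fold (mutant) and 1.22-fold (wild-type). HSD17B7, a sterol ketoreductase read by a shared probe set, was 1.39-fold lower with mutant and 1.03-fold with wild-type. The 2 sterol C14 reductases differed least between mutant and control. TM7SF2 read 7.29, 7.58 and 7.16. LBR, which is also the lamin B receptor of the inner nuclear membrane, read 11.01, 10.83 and 10.94 and was the 1 enzyme of the arm with wild-type lowest.

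**Figure D2:**
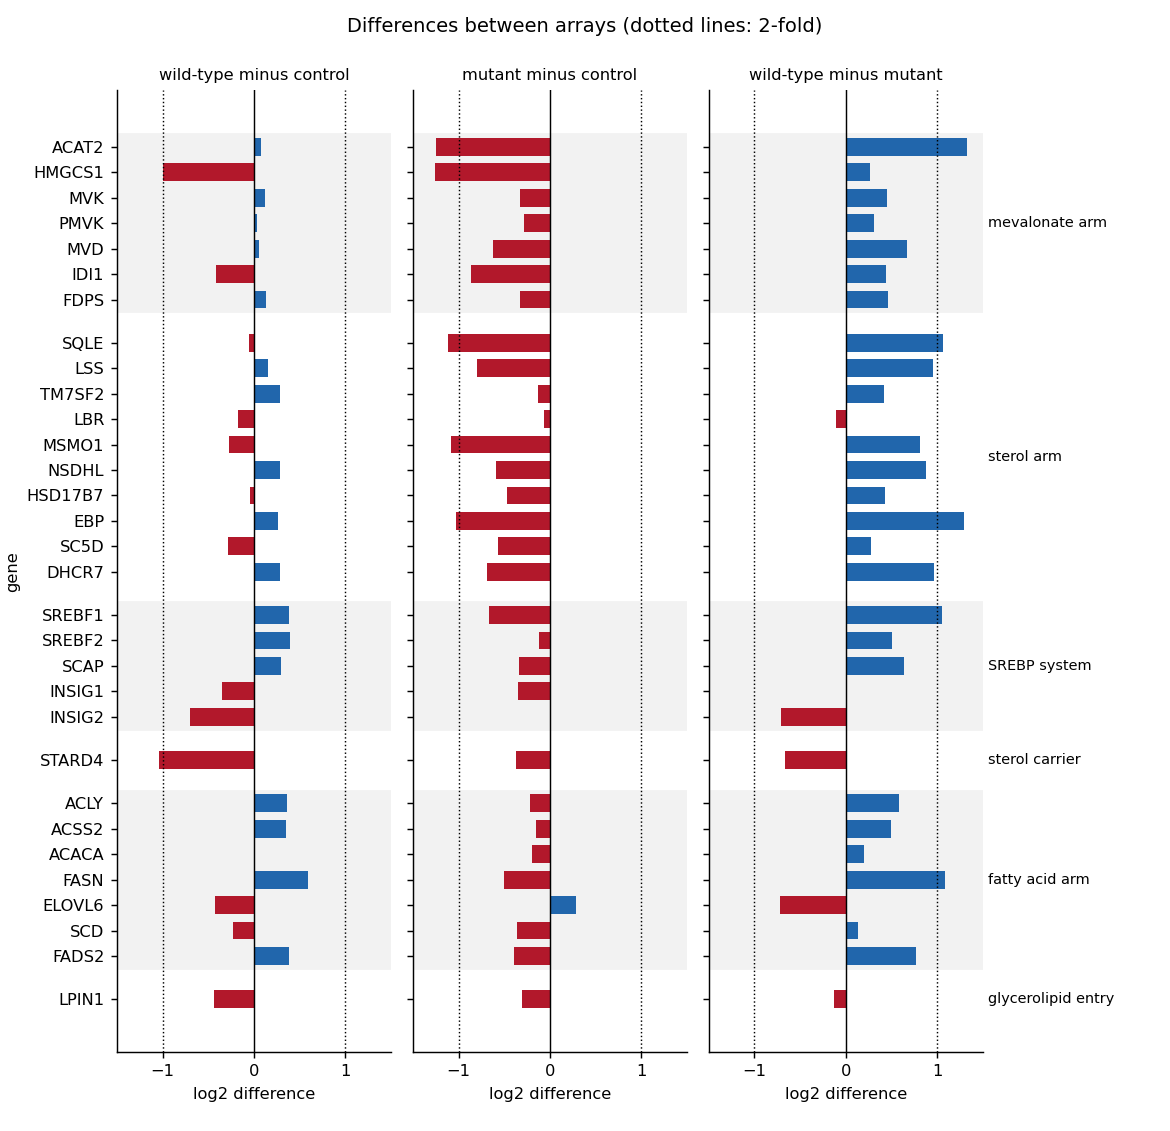
Log2 difference of each gene between arrays (horizontal axis; blue higher, red lower), in 3 panels for wild-type minus control, mutant minus control and wild-type minus mutant, with dotted lines at 2-fold. The middle panel has 29 of 31 bars on the lower side, while the left panel is split, with 17 higher and 13 lower.

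The regulators differed between the JMJD3 arrays. SREBF1, which encodes SREBP-1, read 9.65 (control), 10.03 (wild-type) and 8.98 (mutant). The JMJD3 arrays lay on either side of control, 2.07-fold apart, with wild-type 1.30-fold over control and mutant 1.59-fold under it. A second, dimmer probe set (1558875_at) read 6.05, 6.32 and 6.05, higher with wild-type and level with mutant. SREBF2, which encodes SREBP-2, read 7.77, 8.16 and 7.65 at its chosen probe set and 7.79, 8.16 and 7.28 at 201248_s_at, in the same order. A further probe set, 242748_at, read 6.72 in all arrays. SCAP, the sterol-sensing escort of both SREBPs, read 10.05, 10.35 and 9.71. For SREBF1, SREBF2 and SCAP wild-type was thus highest and mutant lowest, by 1.05, 0.51 and 0.64 on the log2 scale.

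The INSIG genes did not share this order. INSIG1, an anchor of SCAP that is itself a target of SREBP, read 10.78 in control and 10.43 in both JMJD3 arrays. Its other probe sets disagreed with that for wild-type. They read 10.04, 10.03 and 9.62 (201627_s_at) and 7.94, 8.29 and 6.97 (201625_s_at), so wild-type ran from 0.35 below to 0.35 above control, while mutant was lower in all 3 probe sets, by 0.35 to 0.97. INSIG2, the second anchor, read 9.08, 8.38 and 9.09 at its 1 probe set. Wild-type alone was low there, 1.62-fold under control, and mutant differed from control by 0.01. STARD4, a soluble sterol carrier, was lowest with wild-type too, with 9.21, 8.17 and 8.84. It lay 2.06-fold under control in the wild-type array and 1.29-fold in the mutant array.

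In the fatty acid arm the wild-type array exceeded control in 4 of 7 genes, where 54.4% of all measured genes did. The mutant array lay under control in 6 of 7, against 41.2% of all measured genes, and none of the 7 differed from control by 2-fold. Of all measured genes 1.31% were 2-fold lower and 0.953% higher with wild-type, and 0.535% and 2.98% with mutant JMJD3. The medians of the arm were 0.35 and -0.22, and turned to -0.215 and 0.045 over the 2 genes left without shared probe sets. FASN, the fatty acid synthase, read 8.44 (control), 9.03 (wild-type) and 7.94 (mutant), and 6.03, 6.28 and 5.79 at 217006_x_at. Both probe sets placed wild-type highest and mutant lowest, 2.13-fold apart at the brighter. ACLY, which makes cytosolic acetyl-CoA from citrate, read 12.16, 12.52 and 11.94, and its 3 probe sets had the same order. ACSS2, which makes acetyl-CoA from acetate, read 8.15, 8.50 and 8.0. FADS2, the delta-6 desaturase, read 6.73, 7.11 and 6.34. ACACA, acetyl-CoA carboxylase, read 10.26, 10.26 and 10.06, and 8.26, 8.83 and 7.87 at 214358_at, where wild-type was higher by 0.57 rather than level.

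SCD, the stearoyl-CoA desaturase, depended on the probe set. Its brightest, 200832_s_at, read 12.64 (control), 12.41 (wild-type) and 12.28 (mutant), a difference of -0.36 for mutant. The other 3 read 10.85, 11.08 and 9.84 (200831_s_at), 8.07, 8.11 and 6.91 (211708_s_at), and 7.74, 8.16 and 6.69 (211162_x_at). In these mutant was lower by 1.01, 1.16 and 1.05, more than 2-fold each, and wild-type was higher than control by 0.04 to 0.42 instead of lower by 0.23. Read by the median of its probe sets, SCD was past 2-fold for mutant against control, at -1.08. ELOVL6, which lengthens palmitate, was the clearest exception in this arm. It read 7.57, 7.14 and 7.86, with wild-type lowest and mutant highest, and 6.60, 6.13 and 6.49 at 210868_s_at, where wild-type was again lowest but mutant was 0.11 below control. LPIN1, a phosphatidate phosphatase at the entry to glycerolipid synthesis, read 9.45, 9.01 and 9.14, lower than control in both JMJD3 arrays, and 212276_at gave the same order.

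**Figure D3:**
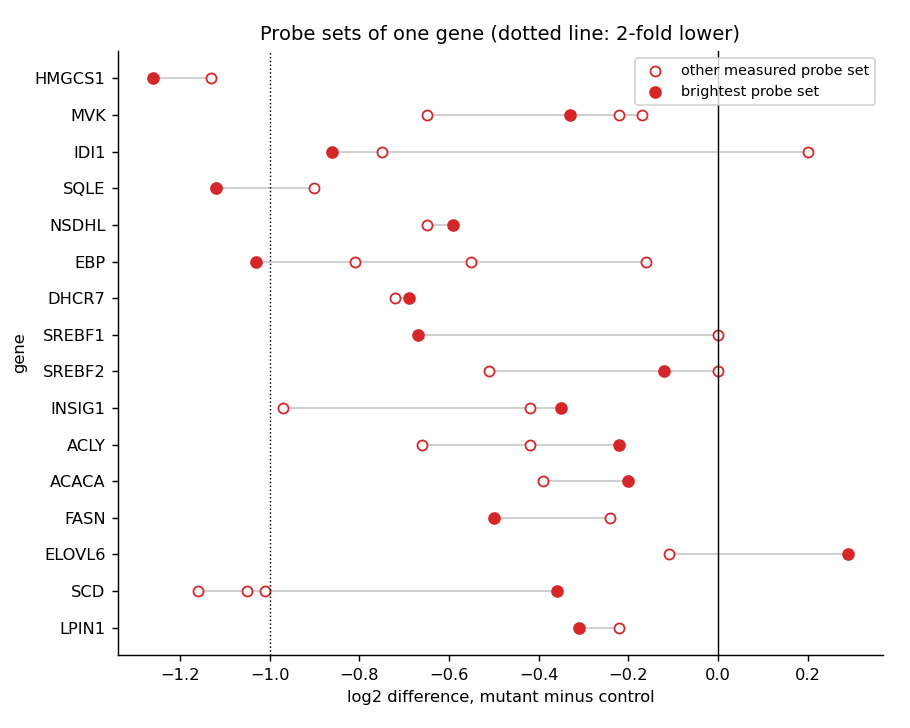
Log2 difference between mutant JMJD3 and control (horizontal axis) for each measured probe set of the 16 genes that had several; the filled point is the brightest probe set and open points are the others, with 1 open point of SQLE hidden behind its filled one. Points lie right of 0 for IDI1 (1 probe set) and ELOVL6 (1), and the brightest probe set of SCD lies apart from its other 3.

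Probe sets gave a further view, since 58 of the 66 that carried these gene names were measured. Of the 58, 53 were lower with mutant JMJD3 than in control, or 91.4%, against 43.2% of all measured probe sets of 1 symbol, with medians of -0.445 and 0.00. Of the 27 that did not stand for their gene, 24 were lower, 5 of them by 2-fold, where 0.661% of all measured probe sets of 1 symbol were 2-fold lower. Probe sets of one gene read the same RNA and are no replicates. Signs were mixed between the probe sets of ELOVL6 and IDI1 for mutant against control, and of INSIG1, MVK and SCD for wild-type against control. The standing probe set of 14 of the 31 genes was called shared, by its name alone.

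Set against control, wild-type JMJD3 left the list near the rest of the array. It was higher in 17 of 31 genes and lower in 13, against 54.4% and 34.3% of all measured genes, and the median was 0.05 for both the list and all measured genes. HMGCS1 and STARD4 were 2-fold lower, or 2 of 31, against 1.31% of all measured genes, and none was 2-fold higher, against 0.953%. With the pooled median signal added as an offset in place of the floor both were just under 2-fold, at -0.97 and -0.94. The differences ran from 0.59 for FASN to -1.04 for STARD4. The 7 genes 0.30 or more above control on the log2 scale were FASN, SREBF2, SREBF1, FADS2, ACLY, ACSS2 and SCAP, where 26.1% of all measured genes were as far above. The 7 as far below were STARD4, HMGCS1, INSIG2, LPIN1, ELOVL6, IDI1 and INSIG1, against 19.7% of all measured genes.

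The wild-type array exceeded the mutant in 25 of 31 genes, where 49.7% of all measured genes were higher with wild-type. The median was 0.46 against 0.00. ACAT2, EBP, FASN, SQLE and SREBF1 were 2-fold or more higher, 5 of 31, where 2.61% of all measured genes were. Of these EBP (0.84), FASN (0.79), SQLE (0.69) and SREBF1 (0.66) were under 2-fold on the log2 scale when read by the median of their probe sets. None was 2-fold lower, against 6.20% of all measured genes. The 5 genes lower with wild-type than with mutant were ELOVL6, INSIG2, STARD4, LPIN1 and LBR, with differences from -0.11 to -0.72. Among the cholesterol enzymes 16 of 17 were higher with wild-type. This comparison and the 2 against control share arrays and are not independent of each other.

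**Figure D4:**
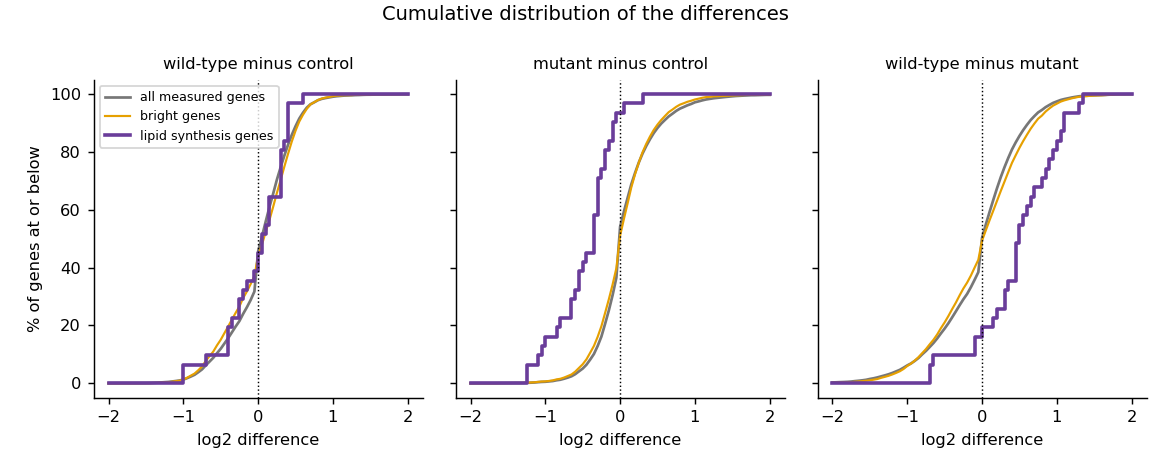
Percent of genes (vertical axis) at or below each log2 difference (horizontal axis) for the 31 lipid synthesis genes, all measured genes and genes of strong signal, in 3 comparisons. The lipid synthesis curve follows the others for wild-type minus control (median 0.05), lies left of them for mutant minus control (median -0.37) and right of them for wild-type minus mutant (median 0.46).

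Other lipid genes, in 7 lists beside the pathway, did not all share the mutant's lower values. Genes of the related lists were read at their brightest probe set only, and their other probe sets were not checked. Targets and partners of LXR, the receptor that senses oxysterols, together with sterol exporters, were higher with mutant JMJD3 than in control in 5 of 6 measured genes, where 45.9% of all measured genes were, with a median of 0.565. The 5 include NR1H3 (0.14), which encodes LXR alpha, and NCEH1 (0.02), a cholesteryl ester hydrolase. ABCG1, a sterol exporter, read 5.37 (control), 5.72 (wild-type) and 8.21 (mutant), at least 6.63-fold higher than control. ABCA1, which loads cholesterol onto apolipoprotein, read 6.59, 4.79 and 8.07, the highest with mutant (2.79-fold over control) and at least 2.16-fold under control with wild-type. MYLIP, a ubiquitin ligase of lipoprotein receptors, read 7.47, 7.06 and 8.46. Of the 8 genes on this list, PLTP was under the floor in all arrays and NR1H2 had no probe set of 1 symbol. SREBF1, also an LXR target but not on this list, lay the other way, as given above. Other LXR targets outside the list were not gathered, so these values do not describe LXR targets as a whole. ABCG2, a drug and urate exporter on the same list, was 1.45-fold lower with mutant JMJD3.

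Genes of sterol uptake, trafficking and esterification were higher than control in 10 of 12 with wild-type JMJD3 (median 0.375) and 7 of 12 with mutant (median 0.135), none by 2-fold. The shares of all measured genes higher than control were 54.4% and 45.9%, and those 2-fold higher 0.953% and 2.98%. NPC1, the lysosomal cholesterol exporter, read 9.36, 9.77 and 8.85, and SCARB1, the HDL receptor, 8.62, 9.10 and 8.32, both lowest with mutant. SOAT1, which esterifies cholesterol, had the reverse order with 11.67, 11.17 and 12.01. GRAMD1B, a carrier of sterol to the endoplasmic reticulum, read 7.92, 8.33 and 8.83. Genes that move and cleave the SREBPs were listed together with genes of sterol-sensing degradation. Medians over all measured genes were 0.00 with mutant and 0.05 with wild-type JMJD3. This joint list was centred on 0.00 with mutant JMJD3 over 11 measured genes, and on -0.11 with wild-type. Its largest gaps were in PAQR3, a Golgi anchor of SCAP (7.75, 7.64 and 8.46), and in the COPII coat genes SEC24B (9.41, 8.84 and 9.67), SEC24C (10.11, 10.53 and 9.76) and SEC24A (9.39, 8.73 and 9.33).

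In the branch from mevalonate to prenyl groups, 6 of 10 measured genes were lower and 3 higher with mutant JMJD3, where 41.2% of all measured genes were lower. The median was -0.10, and none differed by 2-fold, where 0.535% of all measured genes were 2-fold lower and 2.98% higher. RABGGTA (6.49, 7.18 and 6.26) and COQ2 of ubiquinone synthesis (9.35, 9.93 and 9.18) were lowest with mutant. PGGT1B (8.46, 8.08 and 8.80) and GGPS1, the geranylgeranyl diphosphate synthase (9.42, 9.01 and 9.64), were highest there. Further genes of fatty acid synthesis and desaturation were lower with mutant JMJD3 in 6 of 12, with a median of -0.045. SLC25A1, the mitochondrial citrate carrier, was 1.40-fold lower, while the desaturase SCD5 was 1.43-fold higher and the elongase ELOVL7, under the floor in control, at least 1.62-fold. FADS3, of the same family as FADS2, read 8.98, 9.49 and 8.83.

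Genes of fatty acid activation and glycerolipid synthesis had a median of 0.00 with either JMJD3. In each comparison 3 of the 12 measured genes were at exactly 0 and set that median, and a difference of 0 does not show equal levels. ACSL4, which activates arachidonate, read 7.98, 7.84 and 8.98, 2.0-fold over control with mutant. PCYT2, of phosphatidylethanolamine synthesis, read 7.08, 7.74 and 6.60, DGAT1, of triglyceride synthesis, 7.64, 8.33 and 8.19, and GPAM, the glycerol phosphate acyltransferase, 8.31, 7.67 and 8.31. Fatty acid oxidation genes were higher with mutant JMJD3 than in control in 10 of 14, with a median of 0.165, and with wild-type in 8 of 14, with a median of 0.175. Of all measured genes 45.9% and 54.4% were higher. PPARGC1A, a coactivator of oxidative metabolism, read 7.71, 6.88 and 8.75, and PPARA, a nuclear receptor for fatty acids, 8.21, 7.54 and 8.85. In both the mutant was highest and wild-type lowest. ACADM, a medium-chain dehydrogenase, followed the same order with 10.06, 9.56 and 10.51, and ECI1, an enoyl-CoA isomerase, read 9.89, 10.26 and 10.59. Genes of S and G2/M phase, as a measure of cell cycling, had medians of -0.04 with wild-type and -0.07 with mutant JMJD3. Of the 21, 14 were lower than control with mutant JMJD3 and 6 higher, where 41.2% of all measured genes were lower. With wild-type 10 of the 21 were higher than control and 11 lower, against 54.4% and 34.3% of all measured genes. PLK1 (6.74, 7.31 and 6.58), KIF20A (10.03, 10.46 and 10.16), CCNB1 (11.42, 11.80 and 11.18) and MCM5 (10.46, 10.83 and 10.22) were highest with wild-type. KIF11 (10.62, 9.68 and 10.68), CENPF (10.83, 9.94 and 10.50), MKI67 (9.51, 8.71 and 9.12) and TOP2A (11.34, 10.64 and 11.75) were lowest with wild-type. By 2-fold, 0 of 21 differed from control in either JMJD3 array. Of all measured genes 1.31% were 2-fold lower and 0.953% higher with wild-type, and 0.535% and 2.98% with mutant JMJD3. A count of 0 in 21 lies near these shares.

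**Figure D5:**
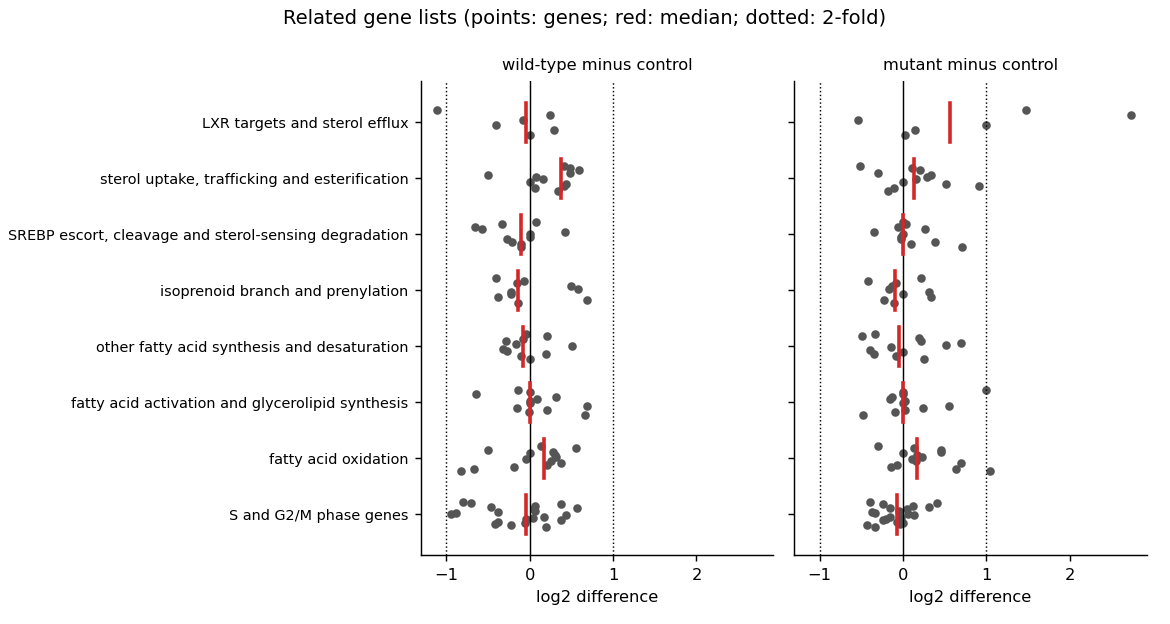
Log2 differences from control (horizontal axis) of the measured genes in 8 related lists, with wild-type JMJD3 on the left and mutant JMJD3 on the right; points are genes, red bars the list medians and dotted lines 2-fold. The LXR and efflux list has a median of 0.565 with mutant JMJD3, and the medians of the other lists lie between -0.10 and 0.165 there.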

How the data were processed

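Biotin-labelled cRNA from the total RNA of 3 PANC-1 lines was measured on Affymetrix expression arrays, 1 per line. The submitters' processing notes name MAS5, with no settings. The deposited columns hold log2 signals, judged from their range. How the arrays were normalized is not given in the sources used. The columns had nearly the same distribution, and 21.0% of 54613 probe sets had 1 value in common to all arrays, so that a difference of 0 does not show equal levels.

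Names came from the platform annotation, in which 41091 probe sets had 1 symbol, 1801 several, and 11721 were not listed. The 31 genes matched the RefSeq table of GRCh38.p14 by gene identifier. The floor, differences and 2-fold counts are as described with the results. A fold is 2 raised to the log2 difference, and is a lower bound (at least) where one array was at or under the floor. With 1 array per group no test or p-value was possible, and precision is limited by the number of arrays.

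The genes and lists were chosen with earlier results of these data known. Array values are given for genes at 2-fold in any comparison, genes with probe sets of mixed sign and the SREBP regulators, and for up to 4 genes of each related list with the largest differences. A few others were added after their values were seen. There were 7 alternatives. Calculations were tested on simulated data. Promoter windows came from RefSeq. The work used matplotlib 3.10.9, pandas 2.3.3 and numpy 2.4.6 under Python 3.11.15.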

Additional observations from a re-analysis of the deposited data

How the results depend on the processing

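Results were recomputed in 7 other ways: by quantile normalization, by shifting the arrays to a common median, with the floor at the 60th or the 40th percentile, with the pooled median signal added as an offset and no floor, with each gene at the median of its probe sets, and with no shared probe sets. Over the 31 genes the median for mutant against control stayed between -0.413 and -0.341 and that for wild-type against mutant between 0.411 and 0.54. For wild-type against control it ran from -0.03 to 0.105. Over all measured genes the medians ran from -0.027 to 0.01 for mutant against control and from 0.0 to 0.087 for wild-type against mutant. For wild-type against control they ran from 0.01 to 0.07. Shares of all measured genes that were lower, or past 2-fold, were not computed under the alternatives. The counts below therefore cannot be set against the rest of the array.

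Without shared probe sets 18 of the genes were measured. Then 16 were lower with mutant JMJD3 than in control, 3 of them by 2-fold, and 2 were 2-fold higher with wild-type than with mutant. The mutant-against-control median was -0.80 over 9 cholesterol enzymes, -0.33 over 3 of the mevalonate arm and -0.805 over 6 of the sterol arm, and the cholesterol enzymes had 0.81 for wild-type against mutant. The fatty acid arm kept 2 genes, and its medians turned sign, to -0.215 for wild-type against control, 0.045 for mutant against control and -0.26 for wild-type against mutant.

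With the offset 0 genes were 2-fold lower with wild-type JMJD3 than in control, 2 were 2-fold higher with wild-type than mutant, and the mevalonate median for mutant was -0.358. With the median over probe sets these were 1, 3 and -0.435. The wild-type-against-mutant medians were then 0.565 for cholesterol enzymes, 0.695 for the sterol arm and 0.64 for the SREBP system. With one median or quantile normalization 1 gene was 2-fold lower with wild-type than in control. The cause of shifts under the offset and scaling settings was not tested.

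HMGCS1 against control with wild-type was under 2-fold in 4 settings, the smallest at -0.84, and STARD4 in 1 (-0.94, offset). EBP against control with mutant was -0.68 with the median over probe sets and -0.81 without shared ones. Over all alternatives, 583 single-gene values kept their side of 2-fold without a change of sign, 15 went under 2-fold and 5 passed it. In 3 cases, all under 2-fold, the sign turned: SCD with wild-type (0.16) and ELOVL6 with mutant (-0.11) by the median of probe sets, and INSIG2 with mutant (-0.03) under quantile normalization. No paired analysis was possible because each group had 1 array.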
